A study of Mus musculus with 3 samples.

Results

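Transcripts of the insulin-like growth factor (IGF) system were followed in mouse cochlear organoids through 8 genes, picked by symbol from the 31053 genes of the count matrices. They were the ligands Igf1 and Igf2, the receptors Igf1r and Igf2r, and the binding proteins Igfbp2, Igfbp3, Igfbp4 and Igfbp5. All 8 symbols were found once in each matrix. The organoids were grown in culture from C57BL/6 cochlear progenitor cells that carry the R-spondin receptor Lgr5. Single cells were profiled with 10x Genomics 3′ v3 chemistry. The first library came from organoids in expansion medium (passage 2, day 8), which held IGF (50 ng/mL) beside EGF (20 ng/mL) and bFGF (10 ng/mL), with the small molecules CHIR99021 (3), LPA (2.5) and Y-27632 (10), whose unit the labels write as um. The second and the third came from organoids on day 5 and day 25 of differentiation. These had the same earlier expansion and were then moved to bFGF, BDNF, Shh, A83-01 and RA, with LY4115775 added until day 5, so IGF is named for the expansion medium and not for the differentiation medium. Trypsin (0.125%, 25 min) was used to dissociate organoids of all groups, and single living cells were sorted with DAPI.

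IGF1 and IGF2 are secreted peptides that signal through the tyrosine kinase receptor IGF1R to insulin receptor substrates, PI3 kinase and AKT. IGF2R, the cation-independent mannose 6-phosphate receptor, takes up IGF2 for lysosomal breakdown, and the IGF binding proteins hold IGFs outside the cell, where they can limit or carry the ligand. In the inner ear of mice, loss of Igf1 is known to impair cochlear growth and hearing.

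Each group was a single library, so no test between groups was possible; intervals are exact 95% intervals that cover counting error only and not the spread between cultures. After filtering, 26232 expansion cells, 13200 day 5 cells and 6111 day 25 cells were kept. They held 188938799, 131820611 and 72472687 unique molecular identifiers (UMIs, each standing for 1 captured transcript) and medians of 4738, 5853.5 and 8475 UMIs per cell. Doublet calling marked 6.30%, 4.69% and 2.44% of the barcodes in these libraries where loading predicts 22.4%, 11.1% and 5.01%, so many doublets were probably not called. Between 21 and 109 barcodes were shared by any pair of libraries. The day 25 matrix came from a later Cell Ranger version than the other matrices, and the version cannot be told apart from the day.

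The genes were described in 3 classes of cells set by marker UMIs. Otor-high cells (at least 5 Otor UMIs and 1000 CPM, which are UMIs scaled to a common total) numbered 3957 in expansion, 4455 on day 5 and 454 on day 25. Pou4f3-positive cells (at least 2 UMIs of this hair cell transcription factor) numbered 164, 319 and 1534, and Epcam-positive cells (at least 2 Epcam UMIs and 200 CPM, with fewer than 2 Pou4f3 UMIs) 14887, 6559 and 3679. Cells that met the Otor thresholds and also those of Pou4f3 or Epcam were left out of all 3 classes (318, 195 and 31 cells). Otor-high cells thus fell short of the Epcam and Pou4f3 thresholds by rule. Median depths were 4158, 6009 and 7462.5 UMIs in Otor-high cells, 8008, 8585 and 9636.5 in Pou4f3-positive cells, and 6582, 6534 and 8940 in Epcam-positive cells.

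Markers other than the genes of the class rules were summed to check the labels. Of 9 hair cell markers, 9, 9 and 8 reached 20 CPM in Pou4f3-positive cells of the 3 libraries in time order, where they summed to 2357, 6665 and 5371 CPM, against 89.3, 102.2 and 184.7 CPM in Epcam-positive cells. Of 9 mesenchymal markers, 5, 6 and 8 reached 20 CPM in Otor-high cells and summed to 435, 1027 and 1057 CPM, against 63.0, 46.9 and 23.0 CPM in Epcam-positive cells; Col1a1 was at 0 or 0.39 CPM in Otor-high cells. Among the mesenchymal markers, Prrx1 did not set the classes apart in expansion, at 44.1 CPM in Epcam-positive and 41.2 CPM in Otor-high cells. Of 9 markers of cochlear epithelium, 8, 6 and 7 reached 20 CPM in Epcam-positive cells. Otor-high cells held 192, 270.5 and 296 CPM of these markers in sum, against 1361, 4300 and 6449 CPM in Epcam-positive cells. Of the Pou4f3-positive cells, 91, 111 and 1088 also passed the Epcam thresholds.

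Igf1 transcripts were nearly missing in expansion and were found in Otor-high and Epcam-positive cells within 1.30-fold of each other on day 5. On day 25 their level was the highest of the 3 classes in Otor-high cells. The gene (GRCm38 chr10:87858265-87937042, plus strand) had 4.20, 131 and 795 CPM in Otor-high cells in expansion, on day 5 and on day 25. In Pou4f3-positive cells it had 0, 23.7 and 3.88 CPM at the same stages. In Epcam-positive cells it had 0.270, 170.5 and 32.2 CPM. Otor-high cells were thus the class whose Igf1 level was higher at each later stage, while both other classes peaked on day 5. Cells that met no class rule also had a higher level at each later stage, as given below.

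On day 5, Igf1 was 632-fold higher than in expansion in Epcam-positive cells (interval 460 to 893; 15507 and 38 UMIs) and 31.2-fold higher in Otor-high cells (25.0 to 39.6; 4037 and 78 UMIs). Pou4f3-positive cells held 99 Igf1 UMIs on day 5 and 0 UMIs in 164 expansion cells. The day 5 level stood 12.9-fold above a floor of 3 counts summed over those expansion cells, or 1.84 CPM. The exact interval of the ratio had a lower limit of 10.3. With stricter class thresholds, or as a mean of single-cell CPM, Igf1 was not among the genes counted as higher in this class on day 5. On day 25, Igf1 was 6.06-fold higher than on day 5 in Otor-high cells (5.78 to 6.36). It was then 6.11-fold lower in Pou4f3-positive cells (4.45 to 8.41) and 5.29-fold lower in Epcam-positive cells (5.02 to 5.58). The direction between day 5 and day 25 therefore differed between Otor-high cells and the other classes.

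Between classes, Igf1 in Otor-high cells was 1.30-fold below Epcam-positive cells on day 5 (1.26 to 1.35) and 24.7-fold above them on day 25 (23.2 to 26.3). Pou4f3-positive cells lay 7.20-fold below Epcam-positive cells on day 5 (5.91 to 8.87) and 8.31-fold below on day 25 (6.54 to 10.7). In the order of the class levels, Otor-high cells in expansion (4.20 CPM) and Pou4f3-positive cells on day 25 (3.88 CPM) had overlapping intervals; the other neighbours above 0 did not overlap. Epcam-positive cells held 75.1% of the Igf1 UMIs of the day 5 library. On day 25 Otor-high cells, 7.43% of kept cells, held 47.5%, and cells that met no class rule held 23.1% at 844 CPM. A day 25 cluster led by Apod, Saa3 and Hp, described below, held 4485 of the 6064 Igf1 UMIs of the library. Of its cells, 70.6% were Otor-high and 23.2% met no class rule.

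The share of cells with an Igf1 UMI gave the same order. After each cell was thinned to 2000 UMIs, 0.854%, 19.8% and 54.3% of Otor-high cells had an Igf1 UMI in expansion, on day 5 and on day 25 (unthinned 1.77%, 37.6% and 70.5%). Thinned shares were 0%, 3.72% and 0.537% in Pou4f3-positive cells, and 0.0554%, 25.7% and 6.47% in Epcam-positive cells. The day 5 share in Epcam-positive cells lay far above that in Pou4f3-positive cells of the same library, whose median depth was higher (8585 UMIs, against 6534 UMIs in Epcam-positive cells).

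Transcripts of broken cells are shared out among all droplets, so a low level in one class can come from another. On day 25, Igf1 in Epcam-positive cells was 4.05% of its level in Otor-high cells, and the 8 mesenchymal markers with at least 20 CPM in Otor-high cells stood there at a median of 1.73% (range 0.113% to 28.3%). On day 5 Igf1 in Epcam-positive cells was at 130% of the Otor-high level, and 6 such markers at a median of 2.59% (1.06% to 22.5%). The upper ends of these ranges were Col1a2 on day 25 and Prrx1 on day 5, and the next markers stood at 9.63% and 4.91%. The 37 Pou4f3-positive cells with an Igf1 UMI on day 5 held a median of 30414 UMIs, against 7732 UMIs in the others, and the 27 such cells on day 25 held 23536 UMIs, against 9547 UMIs in the others. In the clusters described below, the day 5 cluster of mainly Pou4f3-positive cells had 13.6 CPM of Igf1 (50 UMIs), against 99 UMIs in the class. The 2 such clusters of day 25 had 1.23 and 1.43 CPM (19 and 4 UMIs), against 70 UMIs in the class. These clusters held most Pou4f3-positive cells of day 25, so most Igf1 UMIs of the class lay in its few cells outside them. The part of doublets and free transcripts in these values was not tested.

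**Figure D1:**
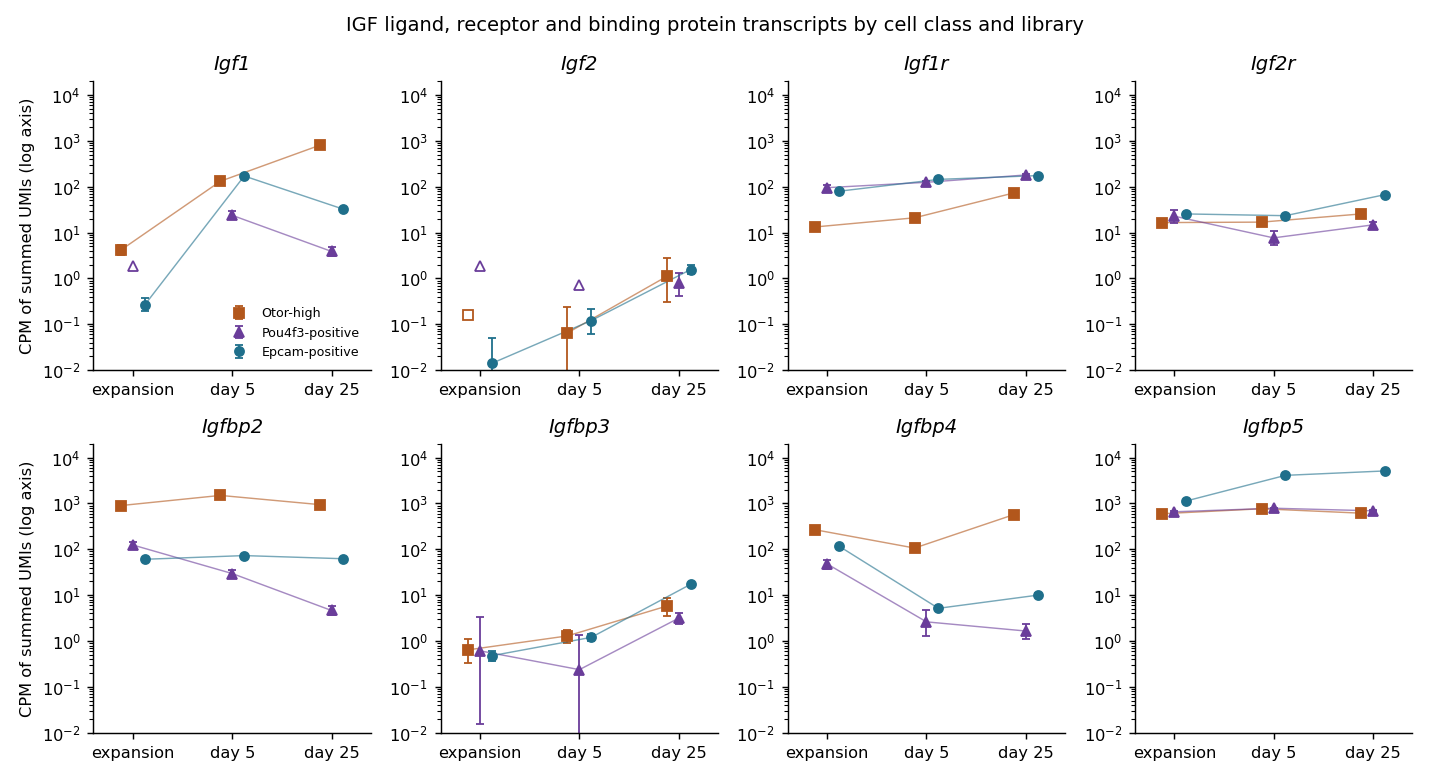
Levels of the 8 genes in CPM (log axis) by stage, with 1 line for each class of cells; bars are exact 95% Poisson intervals, and open symbols mark 0 UMIs drawn at the floor of 3 counts. Igf1 in Otor-high cells reached 795 CPM on day 25, while Epcam-positive cells peaked at 170.5 CPM on day 5, and Igfbp5 led in Epcam-positive cells at every stage.

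Igf2, a fetal growth factor expressed from the paternal allele (chr7:142650766-142666816, minus strand), gave 2, 15 and 98 UMIs in the whole libraries. Its highest class level was 1.56 CPM in Epcam-positive cells on day 25 (1.23 to 1.95). The annotated gene Gm49394 covers 3596 of the 5723 exonic bases of Igf2 on the same strand, and 497 of the last 500. Gm49394 had 0 UMIs. Reads that fit exons of more than 1 gene are not counted by this type of counter, so the low Igf2 count cannot be read as absence of the transcript. No other gene of the set shared exonic bases with another gene on its strand.

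Igf1r, the signalling receptor (chr7:67952827-68233668, plus strand), was carried mainly by Epcam-positive and Pou4f3-positive cells. It had 13.2, 20.9 and 72.9 CPM in Otor-high cells in expansion, on day 5 and on day 25. Levels were 95.1, 124 and 179.5 CPM in Pou4f3-positive cells. In Epcam-positive cells they were 79.5, 144 and 174 CPM. All 3 classes had their highest level on day 25. In Epcam-positive cells the log2 difference of Igf1r between day 25 and day 5 was 0.27, and the median over all genes tested was also 0.27.

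Otor-high cells lay below Epcam-positive cells for Igf1r by 6.00-fold in expansion (5.29 to 6.84), 6.87-fold on day 5 (6.34 to 7.44) and 2.39-fold on day 25 (2.11 to 2.71). Pou4f3-positive and Epcam-positive cells were within 1.20-fold of each other in all 3 libraries, and their ratio on day 25, 1.03, had an interval that spans 1 (0.991 to 1.07). This near equality depended on the processing. The day 25 log2 difference, reported as 0.04, was −0.41 with a mitochondrial limit of 10% and −0.46 as a mean of single-cell CPM. The Pou4f3-positive level of day 25 is also an average over unlike clusters, described below. They had 207 and 9.98 CPM of Igf1r, at medians of 10.9% and 1.37% mitochondrial UMIs. The part of this split in the shifts was not tested. Between stages, day 25 was 3.48-fold above day 5 in Otor-high cells (3.01 to 4.03), while the differences in the other classes stayed below 2-fold. The thinned share of Otor-high cells with an Igf1r UMI was 2.74%, 4.02% and 15.1% through the 3 stages, against 12.9%, 23.3% and 29.1% of Epcam-positive cells. As a percentage of the level in Epcam-positive cells, Igf1r in Otor-high cells stood at 16.7%, 14.6% and 41.9%, and the epithelial markers with at least 20 CPM there at medians of 11.6%, 5.33% and 1.80%.

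Igf2r, the clearance receptor (chr17:12682406-12769664, minus strand), was detected in all classes, at 16.5, 16.9 and 25.4 CPM in Otor-high cells through the 3 stages. It had 22.7, 7.65 and 14.7 CPM in Pou4f3-positive cells and 25.4, 23.3 and 66.8 CPM in Epcam-positive cells. On day 25, Epcam-positive cells stood apart: they were 2.87-fold above their day 5 level (2.71 to 3.03). Otor-high cells were then 2.63-fold below them (2.14 to 3.27), and Pou4f3-positive cells 4.55-fold below (4.01 to 5.18). The day 5 level in Pou4f3-positive cells was 2.97-fold below expansion (1.80 to 4.92), from 32 and 37 UMIs.

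The 4 binding protein genes split by class: Igfbp2 and Igfbp4 had their highest levels in Otor-high cells, and Igfbp5 had its highest in Epcam-positive cells. Igfbp2 (chr1:72824503-72852474, plus strand) and Igfbp5 (chr1:72857932-72874884, minus strand) are neighbours on chromosome 1 with 5457 bases between them, and their 3′ ends face each other. The bases before the annotated start of each gene are shown because these neighbours were high in opposite classes, together with those of Igfbp4 (chr11:99041244-99054392, plus strand), the other gene that was high in Otor-high cells. Sequences are from RefSeq (GRCm38.p6), 5′ to 3′ on the strand of the gene. Capitals mark the GC box letters GGGCGG and the TATA box letters TATAAA, searched on both strands; the window of Igfbp5 was shortened by 19 bases that are exonic.
Igfbp2, chr1:72824230-72824479, plus strand: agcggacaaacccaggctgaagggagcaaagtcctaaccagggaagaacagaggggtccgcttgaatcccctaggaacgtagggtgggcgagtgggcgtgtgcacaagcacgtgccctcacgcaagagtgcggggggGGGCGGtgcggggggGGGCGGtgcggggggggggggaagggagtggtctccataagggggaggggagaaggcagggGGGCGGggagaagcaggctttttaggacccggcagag
Igfbp5, chr1:72874885-72875115, minus strand: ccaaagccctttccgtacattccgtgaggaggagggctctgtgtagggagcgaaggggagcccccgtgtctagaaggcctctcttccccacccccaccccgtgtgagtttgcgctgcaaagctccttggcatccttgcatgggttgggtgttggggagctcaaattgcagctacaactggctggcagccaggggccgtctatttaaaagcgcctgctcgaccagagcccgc
Igfbp4, chr11:99040994-99041243, plus strand: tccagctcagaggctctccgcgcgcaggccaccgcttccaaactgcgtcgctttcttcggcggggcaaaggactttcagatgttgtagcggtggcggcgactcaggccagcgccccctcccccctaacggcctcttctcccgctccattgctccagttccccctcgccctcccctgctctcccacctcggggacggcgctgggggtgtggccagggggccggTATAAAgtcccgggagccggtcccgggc
The Igfbp2 window held 3 GC boxes and no TATAAA, the Igfbp4 window held 1 TATAAA that begins 28 bases before the start and no GC box, and the Igfbp5 window held neither. G and C made up 67.2% of the bases for Igfbp2, 60.6% for Igfbp5 and 69.2% for Igfbp4. Of 32851 RefSeq promoter windows, 32.7% held GGGCGG and 12.4% held TATAAA. Another RefSeq start of Igfbp2 has a window (chr1:72825137-72825386) with no GC box and no TATAAA. The printed Igfbp2 window ends at base 72824479 and does not reach the gene start given above, 72824503. A match describes letters only and shows no binding.

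Igfbp2, a secreted binding protein that also carries an integrin-binding motif, had 900 CPM in Otor-high cells in expansion, 1496 CPM on day 5 and 943.5 CPM on day 25. In Pou4f3-positive cells it had 123.9, 29.6 and 4.65 CPM, and in Epcam-positive cells 60.7, 73.1 and 62.4 CPM. The Epcam-positive level was nearly flat, and the Pou4f3-positive level was lower at each later stage, 4.18-fold on day 5 (3.33 to 5.27) and a further 6.37-fold on day 25 (4.79 to 8.51). Otor-high cells lay above Epcam-positive cells by 14.8-fold in expansion (14.4 to 15.2), 20.5-fold on day 5 (20.0 to 21.0) and 15.1-fold on day 25 (14.4 to 15.9). After thinning, 81.7%, 90.01% and 78.4% of Otor-high cells had an Igfbp2 UMI (unthinned 96.1%, 96.8% and 97.1%), against 10.0%, 9.92% and 9.01% of Epcam-positive cells. The Epcam-positive level was 6.75%, 4.89% and 6.61% of the Otor-high level, above the medians of the mesenchymal markers (3.72%, 2.59% and 1.73%). The highest marker stood at 107% (Prrx1), 22.5% (Prrx1) and 28.3% (Col1a2). The next stood at 8.16% (Twist1), 4.91% (Twist1) and 9.63% (Prrx1).

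Pou4f3-positive cells had 2.04-fold more Igfbp2 than Epcam-positive cells in expansion (1.77 to 2.35), 2.47-fold less on day 5 (2.06 to 2.97) and 13.4-fold less on day 25 (10.8 to 16.9). The expansion difference rests on 202 UMIs and was below 2-fold under TMM and median of ratios scaling. The day 25 class level rests on 84 UMIs. The mainly Pou4f3-positive clusters of that day had 1.42 and 2.14 CPM of Igfbp2 (22 and 6 UMIs), below the class level.

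Igfbp5, a binding protein that also attaches to extracellular matrix, had the highest level of the set in Pou4f3-positive and Epcam-positive cells at every stage, and lay below Igfbp2 in Otor-high cells. It had 598, 766 and 614 CPM in Otor-high cells through the 3 stages, and 658, 787 and 691 CPM in Pou4f3-positive cells. In Epcam-positive cells it had 1133, 4093 and 5104 CPM. There it ranked 127th, 27th and 10th among all genes in expansion, on day 5 and on day 25.

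The Epcam-positive level of Igfbp5 was 3.61-fold above expansion on day 5 (3.59 to 3.64) and a further 1.25-fold higher on day 25 (1.24 to 1.25), while in both other classes the stages lay within 1.28-fold of their neighbour. The Epcam-positive step between day 5 and day 25, 0.32 on the log2 scale, was near the median of all genes tested (0.27). Otor-high cells lay 1.90-fold below Epcam-positive cells in expansion (1.86 to 1.93), 5.34-fold on day 5 (5.27 to 5.41) and 8.31-fold on day 25 (7.97 to 8.67). Pou4f3-positive cells lay 1.72-fold (1.62 to 1.83), 5.20-fold (5.03 to 5.39) and 7.39-fold (7.25 to 7.52) below them. The day 5 cluster of mainly Pou4f3-positive cells had 458 CPM of Igfbp5, below the class level of 787 CPM. The mainly Pou4f3-positive clusters of day 25 had 664 and 183 CPM. Single Epcam-positive cells on day 25 held 42.9 Igfbp5 UMIs per 10000 UMIs in the median, and between 13.3 and 115 once the lowest and highest deciles were set aside; in expansion the median was 7.30. Of Epcam-positive cells, 69.3%, 96.7% and 96.5% had an Igfbp5 UMI after thinning, against 56.7%, 65.0% and 57.5% of Otor-high cells. In Otor-high cells the level was 52.8%, 18.7% and 12.0% of that in Epcam-positive cells, and the 8, 6 and 7 epithelial markers with at least 20 CPM in Epcam-positive cells stood at up to 16.0%, 13.0% and 5.88%.

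Igfbp4, a binding protein that the protease pappalysin cuts, had 266.5, 106.7 and 570.2 CPM in Otor-high cells through the 3 stages. It had 47.9, 2.63 and 1.66 CPM in Pou4f3-positive cells and 117, 5.19 and 10.0 CPM in Epcam-positive cells. All 3 classes were lower on day 5 than in expansion, by 2.50-fold in Otor-high cells (2.39 to 2.61), 18.2-fold in Pou4f3-positive cells (9.63 to 38.0; 11 and 78 UMIs) and 22.5-fold in Epcam-positive cells (20.5 to 24.7). On day 25 Otor-high cells were 5.34-fold above day 5 (5.06 to 5.65). Their distance above Epcam-positive cells was 2.28-fold in expansion (2.21 to 2.36), 20.6-fold on day 5 (18.7 to 22.7) and 56.9-fold on day 25 (51.5 to 62.9). Thinned shares with an Igfbp4 UMI were 40.0%, 16.4% and 52.6% of Otor-high cells, against 18.1%, 1.23% and 1.97% of Epcam-positive cells.

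Igfbp3, the main IGF carrier in serum (chr11:7206086-7213923, minus strand), stayed below 20 CPM in every class. Its level was 0.646, 1.30 and 5.80 CPM in Otor-high cells, 0.614, 0.239 and 3.16 CPM in Pou4f3-positive cells, and 0.483, 1.21 and 17.3 CPM in Epcam-positive cells. In the last class, day 25 was 14.3-fold above day 5 (11.7 to 17.6; 843 and 110 UMIs). These UMIs were unevenly spread: 6.74% of Epcam-positive cells on day 25 had an Igfbp3 UMI (2.17% after thinning), and a single cell held up to 46.

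The makeup of the binding protein transcripts therefore differed between classes at every stage. UMI counts of 3′ libraries count molecules and do not scale with transcript length, so the genes were set side by side as shares of the summed UMIs of Igfbp2 to Igfbp5. In Otor-high cells Igfbp2 made up 51.0%, 63.1% and 44.2%, Igfbp5 33.9%, 32.3% and 28.8%, and Igfbp4 15.1%, 4.50% and 26.7%. In Pou4f3-positive cells Igfbp5 made up 79.2%, 96.0% and 98.6%, and in Epcam-positive cells 86.4%, 98.1% and 98.3%. The summed level was 1765, 2370 and 2134 CPM in Otor-high cells, 830.0, 819 and 700.5 CPM in Pou4f3-positive cells, and 1311, 4173 and 5194 CPM in Epcam-positive cells.

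**Figure D2:**
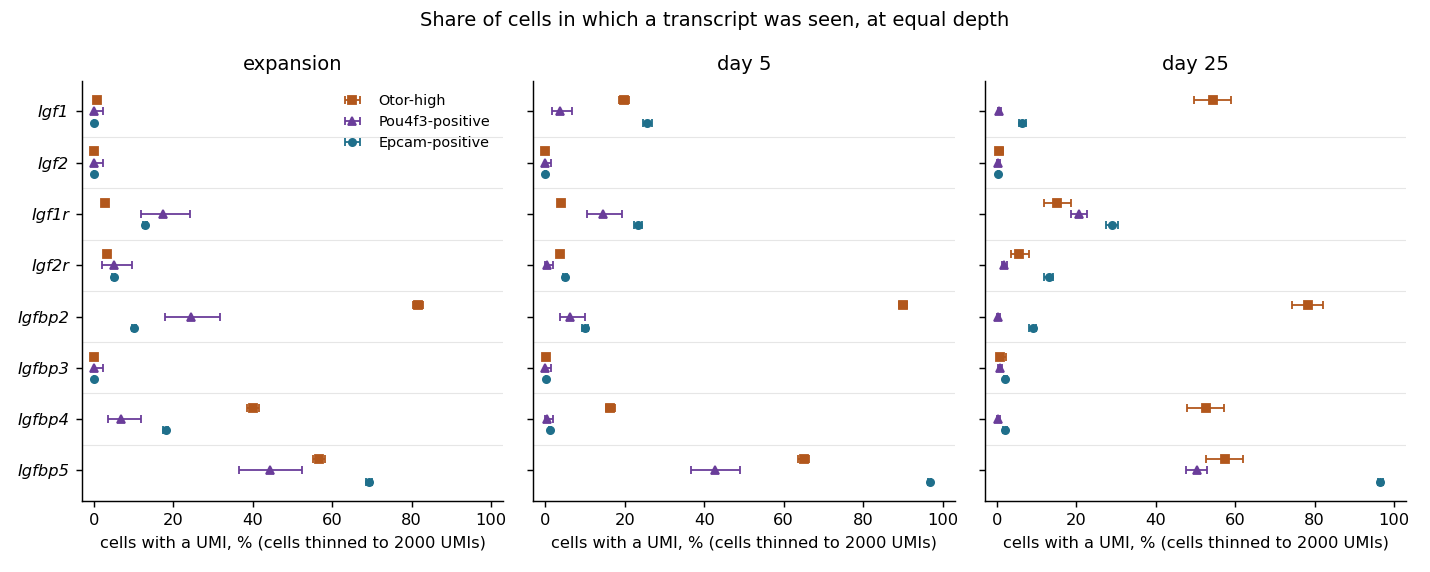
Percentage of cells with at least 1 UMI after thinning each cell to 2000 UMIs, by class and stage; bars are exact 95% Clopper-Pearson intervals. Igfbp2 was found in 78.4% to 90.01% of Otor-high cells and Igfbp5 in 69.3% to 96.7% of Epcam-positive cells, while the Igf1 share in Otor-high cells was highest on day 25, at 54.3%.

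Counts of members past 2-fold were read against the same count over all genes. A gene was counted when at least 1 of the sums held 20 CPM and CPM + 1 differed by at least 2-fold. Between Otor-high and Epcam-positive cells, 3 of 5 measured members passed in expansion (background 17.4% of all genes tested), 4 of 6 on day 5 (22.6%) and 6 of 6 on day 25 (25.4%). The members lower in Otor-high cells on day 25 were Igf1r, Igf2r and Igfbp5, and those higher were Igf1, Igfbp2 and Igfbp4. Between Pou4f3-positive and Epcam-positive cells, 2 of 5 passed in expansion (14.6%), 4 of 5 on day 5 (36.5%) and 4 of 5 on day 25 (38.5%); on days 5 and 25 the 4 were Igf1, Igf2r, Igfbp2 and Igfbp5, lower in Pou4f3-positive cells each time. With looser class thresholds, which take a single Pou4f3 UMI, 1 member passed on day 5. Both kinds of comparison share the Epcam-positive cells.

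**Figure D3:**
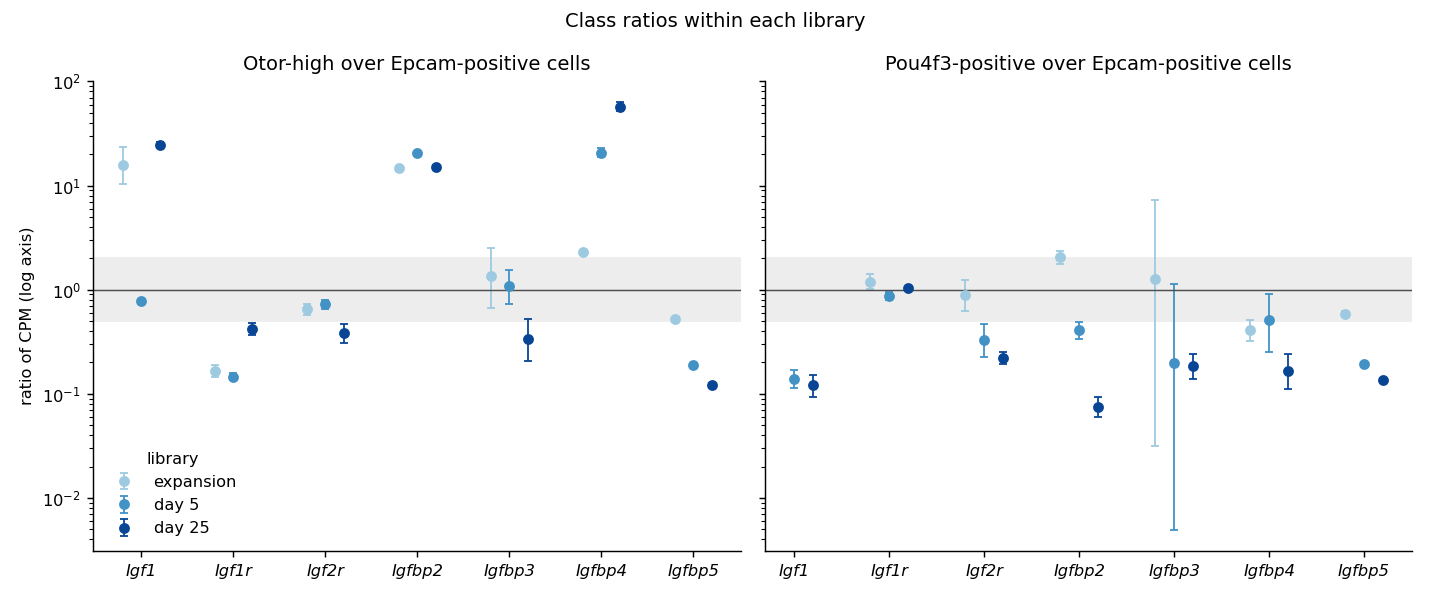
Ratio of CPM (log axis) of Otor-high over Epcam-positive and Pou4f3-positive over Epcam-positive cells in the 3 libraries, with 95% counting intervals; the grey band marks differences within 2-fold, and pairs with a 0 or under 20 UMIs are not drawn. Igfbp2 and Igfbp4 lie above the band in Otor-high cells in all 3 libraries, and Igf1r lies below it.

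Between stages, Epcam-positive cells had 3 of 6 measured members past 2-fold on day 5 against expansion (background 25.1%), namely Igf1 and Igfbp5 higher and Igfbp4 lower, and 2 of 5 on day 25 against day 5 (24.1%), Igf2r higher and Igf1 lower. Pou4f3-positive cells had 4 of 6 on day 5 against expansion (26.7%), with Igf1 higher and Igf2r, Igfbp2 and Igfbp4 lower; with looser class thresholds Igf2r was not past 2-fold and Igfbp5 was, as higher. They had 2 of 4 on day 25 against day 5 (27.5%), Igf1 and Igfbp2 lower, of which 1 passed with stricter class thresholds. Otor-high cells had 2 of 5 on day 5 against expansion (25.8%), Igf1 higher and Igfbp4 lower, and 3 of 6 on day 25 against day 5 (22.1%), with Igf1, Igf1r and Igfbp4 higher. The median log2 difference of the measured members was 0.55 and 0.27 in Epcam-positive cells in these comparisons, −0.60 and −1.26 in Pou4f3-positive cells, and 0.62 and 1.16 in Otor-high cells. Over all genes tested it lay between 0.09 and 0.41.

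The whole libraries mix these classes in different proportions, since Otor-high cells were 15.1%, 33.8% and 7.43% of kept cells and Pou4f3-positive cells 0.625%, 2.42% and 25.1%. On day 5 against expansion 4 of 6 measured members passed 2-fold (background 23.1%): Igf1, Igfbp2 (2.07-fold) and Igfbp5 (3.06-fold) were higher and Igfbp4 was 4.43-fold lower. On day 25 against day 5 it was 2 of 6 (26.9%), with Igf2r 2.37-fold higher and Igfbp2 4.06-fold lower. On day 25 against expansion it was 5 of 6 (42.5%), with Igf1, Igf1r, Igf2r and Igfbp5 (3.57-fold) higher and Igfbp4 2.99-fold lower. Within Otor-high cells Igfbp2 moved by 1.66-fold or less between neighbouring stages, and in Epcam-positive cells by 1.20-fold and 1.17-fold. In Pou4f3-positive cells it was 4.18-fold lower on day 5 and a further 6.37-fold lower on day 25. The part of class proportions in the whole-library Igfbp2 differences was not tested. The all-gene median of day 25 over expansion was 0.51 on the log2 scale and −0.21 under TMM scaling, under which Igf1r and Igf2r were no longer past 2-fold there. Under TMM and under median of ratios scaling, Igfbp2 on day 5 against expansion and Igf2r on day 25 against day 5 were not past 2-fold either.

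Clustering without the 8 genes gave 27 clusters, almost all from a single library, and 25 sums of a cluster within a library held at least 50 cells. On day 5 the Igf1 level of the mainly Epcam-positive clusters was even, at 149 to 190 CPM. On day 25 it ran between 2.54 CPM in a cluster led by H19, Nptx2 and Tectb and 56.2 CPM in a cluster led by Vmo1, Slpi and Clca3a2. The day 25 cluster of mainly Otor-high cells, led by Apod, Saa3 and Hp, had 902 CPM.

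The H19 cluster, with 359 cells, stood apart in other members too. Igfbp3 reached 76.4 CPM there (301 UMIs), 40.0 CPM in a cluster led by Stmn2 and Tectb, and 34.8 CPM in a cluster led by Sfn, Olr1 and Areg. The other day 25 clusters had 1.07 to 7.18 CPM. Igf2 was also highest in the H19 cluster, at 14.2 CPM (56 UMIs; 10.7 to 18.5), and H19 is its imprinted neighbour on chromosome 7. Igfbp3 was itself among the leading genes of that cluster, although it took no part in the clustering. Igfbp5 was highest in a day 25 cluster led by Car3, Chac1 and Kera, at 8852 CPM, and Igf2r in the cluster led by Sfn, Olr1 and Areg, at 115.5 CPM.

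The mainly Pou4f3-positive clusters of day 25 differed in Igf1r and in other members. A cluster led by Slc26a5, Cxcl10, Ptprq and Tmc1 (93.7% Pou4f3-positive) had 207 CPM of Igf1r in 1055 cells (3204 UMIs). A cluster led by Ocm, Pcp4 and Smpx (70.5% Pou4f3-positive, 24.1% unclassified) had 9.98 CPM in 736 cells (28 UMIs). Igfbp5 stood at 664 and 183 CPM in these clusters and Igf2r at 14.9 and 3.21 CPM. In each, 9 of the 10 hair cell markers were raised over all other cells. The clusters also differed in quality. Medians were 11811 UMIs and 10.9% mitochondrial UMIs in the Slc26a5 cluster and 3693 UMIs and 1.37% in the Ocm cluster. The nuclear transcript Malat1 stood at 22654 CPM in the Slc26a5 cluster and 888 CPM in the Ocm cluster. On day 5 a Pou4f3-positive cluster had 129.9 CPM of Igf1r with Malat1 at 21043 CPM, and a cluster of mostly unclassified cells (79.3%) had 9.82 CPM with Malat1 at 2794 CPM. The part of depth and low Malat1 in these differences was not tested. Without the 4 clusters below 4000 CPM of Malat1, which held 111 of 319 Pou4f3-positive cells on day 5 and 522 of 1534 on day 25, all 15 counts of members past 2-fold stayed within 1.5 times. Igf1r was within 2-fold in every comparison of Pou4f3-positive cells in the main values, so these counts say little about its level.

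**Figure D4:**
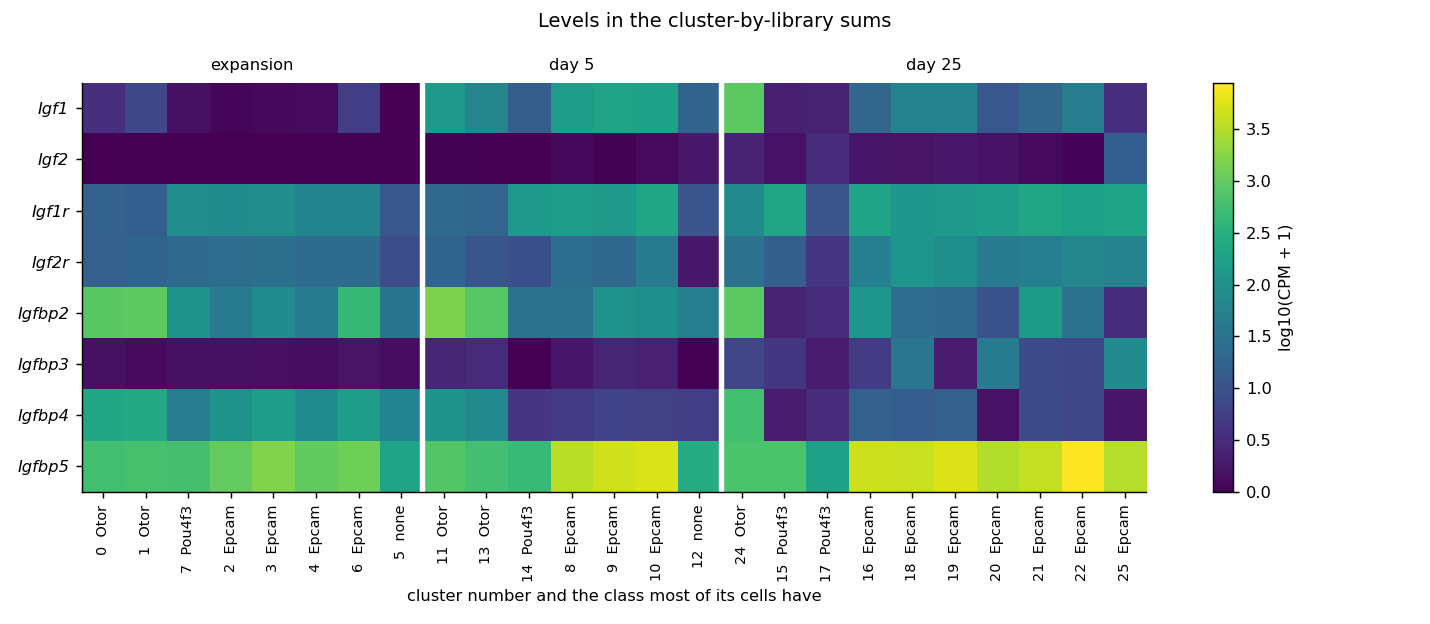
Level of each gene (colour, log10 of CPM + 1) in the 25 sums of a cluster within a library, ordered by library. Igfbp5 is high in most Epcam-positive clusters, Igfbp2 in the Otor-high clusters, and Igf1r is low in the Ocm cluster (9.98 CPM) beside the Slc26a5 cluster (207 CPM).

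The genes most like each member were ranked by Pearson correlation of log2(CPM + 1) over these 25 sums, among 9646 genes; the sums share libraries and depth, and no p is given. For Igf1 these were Islr (0.893), Tmem150a (0.876) and Cebpd (0.869). For Igfbp2 they included Twist1 (0.882) and Cd38 (0.878), and for Igfbp4 Sema5a (0.951), Clmp (0.924) and Apba2 (0.914). Igfbp5 was closest to Hacd2 (0.968), Cd99l2 (0.943) and Glb1 (0.936), and Igfbp3 to Aox2 (0.911), Nptx2 (0.869) and Psmd11 (0.856). Igf1r was closest to Slc12a7 (0.971), Ppm1l (0.961) and Psap (0.957), and Igf2r to Sppl2a (0.959), Cd164 (0.949) and Atp7a (0.947).

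Of 33 other genes of the pathway, the secreted Htra1, Igfbp7 and Stc1, chosen with their values seen, were higher in Otor-high than in Epcam-positive cells on days 5 and 25. Htra1, a secreted protease known to cut IGF binding proteins, had 68.9, 348.9 and 181 CPM in Otor-high cells through the 3 stages. On day 25 it was 20.0-fold above Epcam-positive cells. Igfbp7, a related secreted protein that binds IGFs weakly, was 140-fold above Epcam-positive cells on day 25 at 40.0 CPM, and Stc1, an inhibitor of pappalysin, 14.9-fold at 59.9 CPM. The pappalysins Pappa and Pappa2 stayed at or below 5.20 CPM in every class, and Igfbp1, Igfals and Ins2 below 1 CPM. Between Otor-high and Epcam-positive cells, 2 companions were higher and 3 lower of 16 tested in expansion (all genes 17.4%), 5 higher and 3 lower of 16 on day 5 (22.6%), and 4 higher and 3 lower of 19 on day 25 (25.4%).

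Inside the cell, Irs2, an adaptor of the receptor, had 9.05, 7.08 and 38.7 CPM in Otor-high cells, 25.8, 29.2 and 79.2 CPM in Pou4f3-positive cells, and 31.6, 23.1 and 120.0 CPM in Epcam-positive cells. It was past 2-fold on day 25 against day 5 in all 3 classes, by 5.46-fold, 2.72-fold and 5.19-fold. Irs1, the related adaptor, was 5.47-fold lower on day 5 than in expansion in Epcam-positive cells. Igf2bp2, which binds Igf2 and other mRNAs, had 6.75, 13.9 and 105.7 CPM in Pou4f3-positive cells and 10.9, 15.2 and 149.5 CPM in Epcam-positive cells. Grb10, an adaptor that dampens receptor signalling, had 57.7, 9.32 and 3.32 CPM in Pou4f3-positive cells and was 13.9-fold below Epcam-positive cells on day 25.

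Between stages, 1 companion was higher and 1 lower of 14 tested in Epcam-positive cells on day 5 against expansion (all genes 25.1%), and 3 were higher and 0 lower of 14 on day 25 against day 5 (24.1%), so the companions were called no more often than genes at large. The counts were 1 higher and 3 lower of 13 (26.7%), then 6 higher and 0 lower of 15 (27.5%), in Pou4f3-positive cells. In Otor-high cells they were 5 higher and 0 lower of 14 (25.8%), then 1 higher and 0 lower of 16 (22.1%).

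Among 9 imprinted growth genes, a group that holds many regulators of fetal growth, Mest was past 2-fold lower on day 5 than in expansion in all 3 classes. Cdkn1c, an inhibitor of the cell cycle, had 113, 123 and 46.9 CPM in Otor-high cells, 208, 170.9 and 13.7 CPM in Pou4f3-positive cells and 176, 843 and 128 CPM in Epcam-positive cells, and the day 5 level was 4.797-fold above expansion in Epcam-positive cells. H19 was 2.65-fold and Meg3 16.8-fold higher on day 25 than on day 5 in Epcam-positive cells. Ndn lay above Epcam-positive cells in Otor-high cells in all 3 libraries, by 5.13-fold, 6.57-fold and 12.3-fold.

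**Figure D5:**
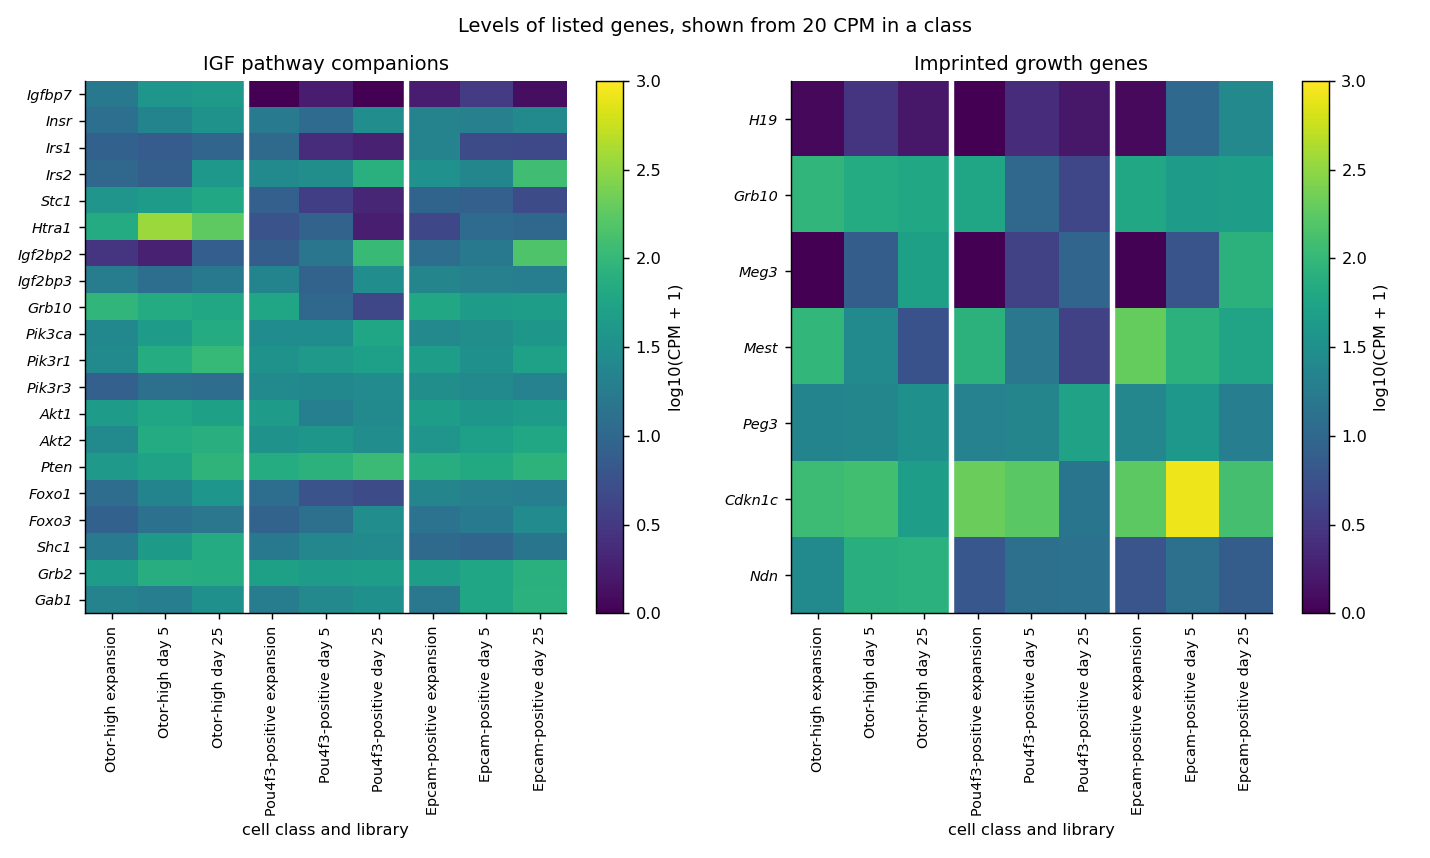
Levels (colour, log10 of CPM + 1) of the other pathway genes and of the imprinted growth genes, for most of those that reached 20 CPM in at least 1 class, with a column for each class and library. Htra1 stands out in Otor-high cells (68.9, 348.9 and 181 CPM), and Irs2 is highest on day 25 in each class (38.7 CPM in Otor-high, 79.2 CPM in Pou4f3-positive and 120.0 CPM in Epcam-positive cells).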

How the data were processed

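Single-cell 3′ libraries of 3 organoid groups were used, with 1 library each. The deposited matrices hold raw UMI counts that the authors obtained with Cell Ranger, per the file headers in version 3.0.1 for the earlier libraries and 3.1.0 for day 25. Builds GRCm38 and hg38 are listed in the submitters' processing notes, and the counting settings are not given in the sources used here. Barcodes under 500 genes or over 20% mitochondrial UMIs and called doublets were left out. UMIs were summed over cells of a class and scaled to CPM over all genes. Sums have exact Poisson intervals, ratios conditional binomial intervals and shares Clopper-Pearson intervals, at 95%. A gene was counted past 2-fold of CPM + 1 with at least 20 CPM in either sum. Mitochondrially encoded genes were left out of counts of genes. Clusters used 2002 variable genes without the members, 30 principal components, 15 neighbours and Leiden resolution 1, and clusters are named by leading genes. Like genes were the 3 highest correlations for each member; some genes that the rules cover are not reported here. Members, lists and classes were chosen with earlier results of these data known. The pathway and imprinted genes named in the text were chosen with their values seen, from the fixed lists. Tools were Python 3.11.15, numpy 2.4.6, scipy 1.17.1, scanpy 1.11.5, matplotlib 3.10.9, R 4.3.3 and edgeR 4.0.16 (TMM factors only). Interval and ratio calculations were run on Poisson counts simulated from the sums. That is the model the intervals assume, with no spread between cells, so the simulation cannot show how well they cover such spread. Alternatives were scaling by TMM or by median of ratios, adding 5 CPM in place of 1, a minimum of 1 CPM, doublets kept, a mitochondrial limit of 10%, other class thresholds, means of single-cell CPM, deeper cells, thinning to 1000 UMIs and, chosen after seeing the data, leaving out clusters low in Malat1.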

Additional observations from a re-analysis of the deposited data

Results flagged for a closer look

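Igf1 moved in opposite directions between day 25 and day 5 in different cell classes of the same libraries. In Otor-high cells it had 795 CPM on day 25 and 131 CPM on day 5, and in Epcam-positive cells 32.2 CPM on day 25 and 170.5 CPM on day 5. The log2 difference between stages was larger in Otor-high than in Epcam-positive cells by 4.96. Against Pou4f3-positive cells, which had 3.88 CPM on day 25 and 23.7 CPM on day 5, it was larger by 4.93. With 1 library at each stage these differences were not tested.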

How the results depend on the processing

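No paired analysis was possible because each group held 1 library, so that the groups share a single replicate number. No leave-one-out value exists for the same reason. Of the alternative counts of members past 2-fold, 157 lay within 1.5 times of the reported count, 2 were higher and 9 lower, and no member difference past 2-fold turned its direction. Of the smaller or uncounted differences 29 alternative values had the other sign, among them Igfbp5 under TMM in whole libraries on day 25 over day 5 (log2 −0.06, reported 0.22) and in Otor-high cells on day 5 over expansion (−0.05, reported 0.36). With a minimum of 1 CPM, day 25 against day 5 gave 4 members in whole libraries and 4 in Epcam-positive cells (reported 2 each), since Igf2 and Igfbp3 then count. In Pou4f3-positive cells day 25 against day 5 gave 1 with means of single-cell CPM and 1 with stricter class thresholds (reported 2). Pou4f3-positive against Epcam-positive cells in expansion (reported 2) gave 1 under TMM, 1 under median of ratios, 1 with a pseudocount of 5 CPM, 1 with doublets kept, 1 with stricter and 0 with looser thresholds, and on day 5 (reported 4) 1 with looser thresholds; the cause was not tested. Scaling shifted the split of all genes past 2-fold: 78.4% were higher in day 25 over expansion, against 42.4% under TMM and 43.3% under median of ratios, and in Otor-high cells on day 5 over expansion 81.0%, against 49.2% and 47.4%. In whole libraries Igf1 was past 2-fold lower on day 25 than on day 5 under both scalings, and Igfbp2 was lower on day 25 than in expansion. Few UMIs limit Igf2 in every class, Igfbp3 outside day 25 Epcam-positive cells and all low genes in the 164 Pou4f3-positive cells of expansion. The floor of 3 counts lay at 1.84 CPM in those expansion cells.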

Other observations

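Cells that met no class rule had 2.43, 161 and 844 CPM of Igf1 in expansion, on day 5 and on day 25. On day 25 these cells held 556 CPM of the 9 mesenchymal markers in sum. They also held 1862 CPM of hair cell markers and 1748 CPM of epithelial markers. On day 25, 97.8% of Otor-high cells with an Igf1 UMI also had an Igfbp2 UMI, against 95.5% of the other Otor-high cells, and 42.8% had an Igf1r UMI, against 29.1% of the others, at like depths (medians of 7487.5 and 7430 UMIs). In expansion, a cluster of 435 cells led by Aard and St8sia1, 54.9% of them Epcam-positive, had 438 CPM of Igfbp2.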
